A study of Rattus norvegicus with 4 samples.

Results

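Satellite glia that were low in both an inflammatory and a Schwann-like gene score were examined in dissociated dorsal root ganglia of rats, the clusters of sensory neuron bodies beside the spinal cord. They are called members below. A barcode, the tag that stands for one captured cell, was retained with at least 200 genes and at most 25% mitochondrial UMIs (unique molecular identifiers, each counting one captured RNA molecule). Satellite glia were retained barcodes with Fabp7, Ttyh1, Sfrp5 and Kcnj10 together at 20 or more per 10000 UMIs, and with the neuronal genes Snap25, Uchl1, Tubb3 and Stmn2 together under 20. Members were chosen by the measured scores themselves, as those below the pooled median both of the inflammatory score (Cxcl10, Gbp2, Gbp5 and Ccl2) and of the Schwann-like score (Cdh19, Prrg4, Scn7a and Itih5). This gave 3769 members of 15635 satellite glia, out of 46679 retained and 49168 deposited barcodes. All libraries came from ipsilateral L4-L6 ganglia of rats labelled wild-type, naïve, male and SD. There were 2 libraries of the CPIP model, a name that the labels do not spell out and that stands in the field for chronic post-ischaemia pain, and 2 of sham rats. Each library pooled tissue of 3 rats after digestion with dispase, collagenase and papain and capture on the BD Rhapsody microwell system. The sources used here give neither the age of the rats nor the time after surgery, and pooling leaves no measure of the spread between animals within a library.

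Satellite glia wrap the bodies of sensory neurons. They buffer extracellular potassium through the Kir4.1 channel encoded by Kcnj10, take up and recycle transmitter, and supply lipid. They derive from the neural crest as Schwann cells do and share the transcription factor Sox10 with them. After nerve injury they are known to couple more to each other and to release cytokines and chemokines, and enzymatic dissociation by itself is known to induce immediate early genes in such cells.

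The libraries held 60885664 to 64550637 UMIs in 11829 to 12828 barcodes, and any pair of libraries shared 1 to 5 barcode sequences. Members numbered 838 and 1089 in CPIP 1 and CPIP 2, and 866 and 976 in Sham 1 and Sham 2. Their summed counts were 4467284 and 5857562 UMIs in CPIP, and 4162604 and 5992288 UMIs in Sham. Members were slightly shallower than the other satellite glia and had a higher mitochondrial share in every library. Median UMIs per cell were 5119, 5069, 4424.5 and 5751.5 in members of CPIP 1, CPIP 2, Sham 1 and Sham 2, against 5673.5, 5521, 5048.5 and 5958.5 in the other satellite glia. Median mitochondrial shares were 15.6%, 14.9%, 15.4% and 15.6% in members, against 13.2%, 12.8%, 13.0% and 13.6% in the others. The part of this difference in the levels below was not tested.

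The 4 marker genes given for this cell type were all higher in members than in the other satellite glia of the same library, in all 4 libraries. Hey2, a transcriptional repressor switched on by Notch signalling, stood at 546, 503, 554 and 529 CPM (UMIs scaled to the summed UMIs of the cells compared) in members of CPIP 1, CPIP 2, Sham 1 and Sham 2, against 333, 307, 325 and 340 CPM in the other satellite glia. Its log2 ratio averaged 0.71 ± 0.05 (SD over 4 libraries), and every member value lay above every value of the others. Apoe, the lipid carrier apolipoprotein E, stood at 1559, 2833, 1939 and 1848 CPM in members and at 1254, 2269, 1569 and 1427 CPM in the others. Among cells with at most 10% mitochondrial UMIs the ratio of Hey2 was 0.19 on the log2 scale and that of Apoe 0.06. The log2 ratio of Apoe over all members was 0.33 ± 0.03, and CPIP 2 was the highest library in both sets of cells. Fabp7, a fatty acid binding protein, and Sfrp5, a secreted inhibitor of Wnt ligands, are part of the rule, and their log2 ratios were 0.47 ± 0.09 and 0.58 ± 0.08. The comparator mattered. Against satellite glia with a high inflammatory score only, the log2 ratios were 0.03 for Fabp7, 0.16 for Sfrp5, 0.14 for Apoe and 0.79 for Hey2. Fabp7 was then higher in members in only 2 of 4 libraries. Against satellite glia with a high Schwann-like score only, they were 0.93, 0.96, 0.52 and 0.45. These ratios are descriptions without a test, since the same cells were sorted by the rule, and the 16 genes of the rule are described in the same way throughout.

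After each cell was thinned to 1000 UMIs, 42.5%, 39.4%, 42.7% and 40.9% of members in CPIP 1, CPIP 2, Sham 1 and Sham 2 held a Hey2 UMI, against 26.4%, 27.5%, 26.3% and 28.5% of the other satellite glia. In barcodes that scored as neurons, which should lack the gene, the thinned share was 1.22% to 1.71%. Without thinning, the shares were 82.1% to 87.0% in members, 68.4% to 76.0% in the others and 5.62% to 8.40% in neuron-scored barcodes, whose median depth was 3341 to 4453 UMIs. Thinning kept 812, 1066, 839 and 944 members, against 2854, 2922, 2864 and 2914 other satellite glia, in CPIP 1, CPIP 2, Sham 1 and Sham 2. The higher share in members was present at equal depth, and all shares of satellite glia lay above the neuron-scored level.

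The working name of these cells calls them quiescent, but the median of cell cycle genes was higher in members, while single genes went both ways. Of 36 cell cycle genes, 20 were abundant enough to compare (at least 5 CPM over all satellite glia), and 10 of them were higher and 3 lower in members in all 4 libraries. Their median log2 ratio was 0.30, against 0.08 over all 8596 genes compared, of which 37.9% were higher and 19.6% lower in all 4 libraries. The 4 most abundant of the 20 were not higher in members, with log2 ratios of -0.19 for Pcna, the sliding clamp of DNA replication, -0.15 for H2az1, a histone variant, -0.01 for Ccnd1, cyclin D1, and 0.02 for Stmn1. Top2a, a topoisomerase of dividing cells, had a UMI in 1.11%, 0.469%, 1.43% and 0.636% of members of CPIP 1, CPIP 2, Sham 1 and Sham 2 at 1000 UMIs, against 0.491%, 0.445%, 0.594% and 0.583% of the other satellite glia and 0.0298% to 0.165% of neuron-scored barcodes. Without thinning, Top2a had a UMI in 1.19% to 2.31% of members, in 0.836% to 1.11% of the others and in 0.231% to 0.367% of neuron-scored barcodes. Mki67, the proliferation marker Ki-67, had a UMI in 0.616%, 0.844%, 0.834% and 0.318% of members of CPIP 1, CPIP 2, Sham 1 and Sham 2 at 1000 UMIs, against 0.421%, 0.137%, 0.279% and 0.343% of the other satellite glia and 0.0611% to 0.226% of neuron-scored barcodes, so Sham 2 had the opposite order. Without thinning these shares were 1.23% to 1.73% in members, 0.669% to 1.25% in the others and 0.537% to 0.625% in neuron-scored barcodes. Against cells high in both scores, 12 of the 20 were higher and 3 lower (all genes, 42.1% and 19.6%), with a median of 0.43 (all genes, 0.12). The median was 0.30 against cells with a high inflammatory score only (all genes, 0.12). Against those with a high Schwann-like score only it was 0.23 (all genes, -0.02). At 1000 UMIs the median over the other satellite glia was 0.34 (all genes, 0.04). Of the members, 43 formed a sub-cluster led by cell cycle genes, in which 88.4% had a Top2a UMI, against under 1% in each other sub-cluster. The part of these 43 cells in the medians was not tested. Members with immediate early and cytokine genes were also numerous, as set out with the sub-clusters. The cells are therefore called here by their rule, low in both scores.

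Promoter windows of genes that separate members from other satellite glia are given to show the letters that lie upstream of them. They run from 250 bases before to 50 after the start site in RefSeq sequence of rat build GRCr8, 5′ to 3′ on the strand of the gene. Capitals mark matches to a short pattern on either strand. Hey2 (chr1:28640850-28641149, plus strand), high in members, is shown with the core of the site of RBPJ, the DNA-binding partner of Notch (TGGGAA). Cxcl10 (chr14:15988816-15989115, plus strand) and Gbp2 (chr2:234005477-234005776, plus strand), both inflammatory genes of the rule, are shown with the core of the interferon-stimulated response element (GAAA, any 2 bases, GAAA). Cxcl1 (chr14:17479272-17479571, minus strand), a neutrophil chemokine low in members, is shown with an NF-kB pattern (GGG, any 2 bases, TTTCC).
Hey2: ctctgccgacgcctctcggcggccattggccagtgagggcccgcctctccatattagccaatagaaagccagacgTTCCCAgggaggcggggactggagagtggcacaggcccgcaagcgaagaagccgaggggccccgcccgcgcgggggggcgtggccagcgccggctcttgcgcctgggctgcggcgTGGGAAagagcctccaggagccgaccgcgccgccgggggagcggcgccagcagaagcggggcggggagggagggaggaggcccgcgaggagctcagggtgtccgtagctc
Cxcl10: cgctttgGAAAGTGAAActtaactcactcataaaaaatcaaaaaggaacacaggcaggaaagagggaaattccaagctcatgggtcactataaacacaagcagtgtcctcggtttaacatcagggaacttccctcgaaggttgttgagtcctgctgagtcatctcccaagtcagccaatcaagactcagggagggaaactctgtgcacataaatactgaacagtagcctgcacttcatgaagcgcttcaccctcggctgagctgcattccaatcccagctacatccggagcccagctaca
Gbp2: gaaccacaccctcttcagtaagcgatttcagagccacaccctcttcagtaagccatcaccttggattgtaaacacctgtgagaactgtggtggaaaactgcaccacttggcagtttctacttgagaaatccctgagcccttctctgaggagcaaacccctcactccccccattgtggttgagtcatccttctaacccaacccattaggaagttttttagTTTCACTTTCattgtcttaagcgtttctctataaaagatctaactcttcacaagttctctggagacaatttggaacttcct
Cxcl1: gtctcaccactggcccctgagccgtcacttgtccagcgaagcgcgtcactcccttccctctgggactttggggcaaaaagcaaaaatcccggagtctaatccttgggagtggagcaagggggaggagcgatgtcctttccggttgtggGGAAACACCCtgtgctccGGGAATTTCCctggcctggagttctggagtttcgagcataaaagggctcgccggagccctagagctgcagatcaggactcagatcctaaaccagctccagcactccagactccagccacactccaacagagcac
The pattern TGGGAA occurred in 25.7% of the 33465 windows in the table and was found in Hey2 at positions -175 to -170 and -60 to -55. It was in 4 of 9 windows of the 15 genes highest in members (Pald1, S100a16, Septin4 and Tspyl4). The window of Nrarp, which Notch induces, did not hold it. Of the 15 lowest genes it was in 5 of 13 windows. The interferon pattern occurred in 3.92% of windows and was found in Cxcl10 at -243 to -234 and in Gbp2 at -31 to -22. It was present in all 3 inflammatory genes of the rule that had a window (Cxcl10, Gbp2 and Gbp5). The NF-kB pattern occurred in 1.53% of windows and was found in Cxcl1 at -102 to -93 and at -84 to -75. Of the 15 genes lowest in members 13 had a window, and this pattern was in Cxcl1, Il6 and Nfkb1. Of the 15 genes highest in members 9 had a window, and it was in Nrarp alone. A match is a description of these letters and shows neither binding nor a cause.

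Members were cut from 2 scores per cell, so the group is a range of scores. The pooled medians were 57.0 per 10000 UMIs for the inflammatory score and 14.03 for the Schwann-like score. Within 10% of the inflammatory median lay 221 members just under it and 219 satellite glia just above it. For the Schwann-like median these numbers were 337 members and 288 other cells. Members had a median inflammatory score of 9.96 and a median Schwann-like score of 7.77, and 22.4% of them had no UMI of the inflammatory genes. The 3 other combinations held 4048 cells (high inflammatory score only), 4048 cells (high Schwann-like score only) and 3770 cells (high in both). All 4 combinations were thus close to the same size over the pooled libraries.

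Members made up 22.2% and 26.7% of satellite glia in CPIP 1 and CPIP 2, and 22.6% and 24.7% in Sham 1 and Sham 2. Both Sham libraries lay between the CPIP libraries. The means were 24.5% ± 3.17 in CPIP and 23.7% ± 1.52 in Sham (SD, n = 2 each), and a two-sided exact permutation test gave p = 1. The difference, CPIP minus Sham, was 0.809 percentage points, but -1.43 without CPIP 2 and -0.264 without Sham 1. Satellite glia as a whole made up 31.0% and 34.1% of retained barcodes in CPIP, and 33.9% and 35.2% in Sham (exact permutation p = 0.667). With 2 libraries against 2 the smallest p this test can give is 0.33, and shares of dissociated cells are not tissue composition.

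**Figure D1:**
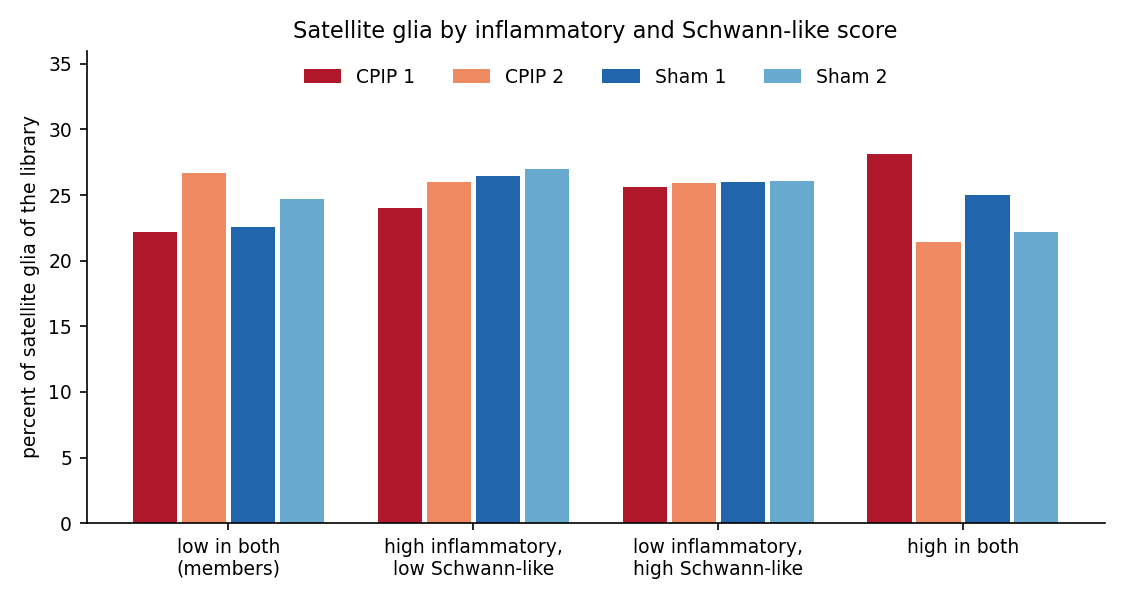
Percent of the satellite glia of each library (bars, CPIP 1, CPIP 2, Sham 1, Sham 2) in the 4 combinations of inflammatory and Schwann-like score, cut at the pooled medians. Members, at the left, held 22.2% to 26.7% in the CPIP libraries and 22.6% to 24.7% in the Sham libraries, so the groups overlapped.

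Genes higher in members, outside the rule, included a regulator of Notch signalling, a glial transcription factor and enzymes of phosphorylation and matrix turnover. Among genes with at least 32 CPM over satellite glia, the highest mean ratio was that of Dusp15, a dual-specificity phosphatase, which stood at 75.2, 66.9, 60.3 and 47.9 CPM in members of CPIP 1, CPIP 2, Sham 1 and Sham 2, against 25.7, 35.2, 37.9 and 23.4 CPM in the other satellite glia. Its log2 ratio was 1.03 ± 0.37 (SD over 4 libraries), with every member value above every value of the others. Nrarp, a feedback inhibitor that Notch induces, stood at 280, 255, 277 and 345 CPM in members and at 152, 159, 144 and 186 CPM in the others, a log2 ratio of 0.85 ± 0.11. Sox10, which specifies neural crest glia, stood at 154, 186, 183 and 179 CPM in members and at 92.6, 118, 104 and 103 CPM in the others, a log2 ratio of 0.75 ± 0.07. Neither gene had overlapping values between the 2 sets of cells. Among cells with at most 10% mitochondrial UMIs the log2 ratios were 0.28 for Nrarp, 0.58 for Sox10 and 2.05 for Dusp15.

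The other 12 of the 15 highest genes had mean log2 ratios from 0.72 to 0.99. They were Adamts15, a secreted metalloprotease that cleaves proteoglycans, Pald1, Nuak1, a kinase related to AMPK, Gprc5c, an orphan receptor, Nt5dc2, Igfbp2, which binds insulin-like growth factors, S100a16, Nell2, Tspyl4, Nrip2, Septin4 and Sema4d, a semaphorin. Among cells with at most 10% mitochondrial UMIs the ratios of Adamts15 (0.57), Nell2 (0.46), Sema4d (0.30), Septin4 (0.23) and Pald1 (0.14) were lower and that of Nrip2 was -0.38. With cells scored at 1000 UMIs S100a16 had 0.49. The comparator also moved much of this list. Igfbp2 had a log2 ratio of 0.01 against cells with a high inflammatory score only and of 1.71 against cells with a high Schwann-like score only. Gprc5c (0.19 and 1.45), Nt5dc2 (0.22 and 1.30) and Nell2 (0.20 and 1.31) had the same order of ratios. Sox10 had the opposite order, with a log2 ratio of 0.96 against cells with a high inflammatory score only and of 0.18 against those with a high Schwann-like score only. Sema4d (0.64 and 0.61), S100a16 (0.73 and 0.47), Adamts15 (0.96 and 0.84) and Hey2 (0.79 and 0.45) were higher in members against both.

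The genes lowest in members were cytokines, interferon-induced genes and genes of NF-kB signalling. Members were chosen for low Cxcl10, Ccl2, Gbp2 and Gbp5, so low values of genes expressed with them follow the choice. Cxcl11, a ligand of the receptor Cxcr3 like Cxcl10, stood at 10.7, 11.4, 6.01 and 11.9 CPM in members of CPIP 1, CPIP 2, Sham 1 and Sham 2, against 62.1, 58.3, 68.9 and 73.2 CPM in the other satellite glia. The log2 ratio of Cxcl11 was -2.69 ± 0.49, the lowest of all genes outside the rule with at least 32 CPM. Il6, interleukin-6, stood at 75.0, 89.3, 50.9 and 79.1 CPM in members and at 322, 256, 210 and 277 CPM in the others, a log2 ratio of -1.86 ± 0.26. Nfkb1, the precursor of the p50 subunit of NF-kB, stood at 199, 128, 164 and 129 CPM in members and at 630, 391, 469 and 469 CPM in the others, a log2 ratio of -1.66 ± 0.14. Member values of these 3 genes lay below every value of the other satellite glia.

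The other 12 of the 15 lowest genes had mean log2 ratios from -2.37 to -1.46. They were the chemokines Cxcl9 and Cxcl1, the interferon-induced Ifit2, Ifit3, Ifi47 and Oasl, the NOD receptor kinase Ripk2, the TWEAK receptor Tnfrsf12a, the hyaluronan-binding Tnfaip6, and Fam110a, Stx11 and Noct. Among cells with at most 10% mitochondrial UMIs Tnfrsf12a (-0.69) and Fam110a (-1.10) were closer to 0 and Cxcl9 (-4.05) was lower. Against cells with a high Schwann-like score only, which are also low in the inflammatory score, the ratios were closer to 0 or turned round. Cxcl11 was then higher in members, with a log2 ratio of 1.04 ± 0.71, and Cxcl9 had a ratio of 0.33 ± 0.70. Oasl (0.04), Noct (-0.03), Ripk2 (-0.16) and Il6 (-0.20) were near 0. Tnfaip6 (-1.40), Tnfrsf12a (-1.33), Stx11 (-1.04) and Ifit2 (-0.99) remained lower in members against these cells.

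**Figure D2:**
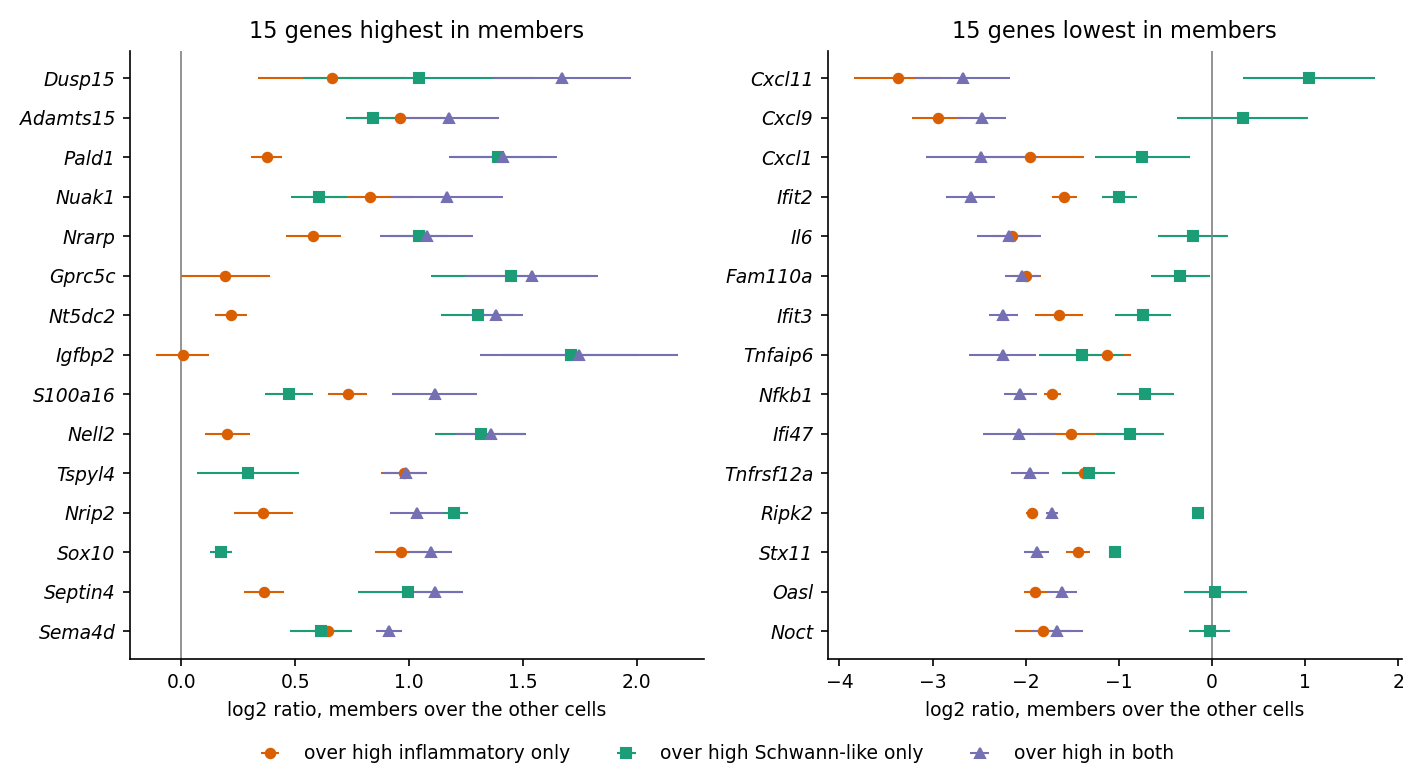
Mean log2 ratio of CPM in members over each of the 3 other kinds of satellite glia (circles, squares and triangles), with bars for the SD over 4 libraries, for the 15 genes with the highest and the 15 with the lowest ratio over all other satellite glia. Igfbp2 sits at 0.01 against high inflammatory cells and 1.71 against high Schwann-like cells, and Cxcl11 at -3.37 and 1.04.

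The scored genes themselves showed the same separation, as the rule fixes. Cxcl10 stood at 778, 841, 913 and 1160 CPM in members of CPIP 1, CPIP 2, Sham 1 and Sham 2, against 5249, 4842, 5905 and 5501 CPM in the other satellite glia. Members were thus not free of Cxcl10 transcripts. At 1000 UMIs a Cxcl10 UMI was present in 32.8% to 41.2% of members, 75.4% to 78.0% of the others and 11.0% to 12.5% of neuron-scored barcodes. Without thinning these shares were 50.8% to 60.8% in members, 82.9% to 85.8% in the others and 23.4% to 26.9% in neuron-scored barcodes. Of the Schwann-like genes, Prrg4, a transmembrane protein, had the lowest log2 ratio, -2.78 ± 0.24. Cdh19, a cadherin of the Schwann cell lineage, had -1.70 ± 0.09, and Scn7a, a sodium channel of glia, had -1.61 ± 0.14. Itih5, which binds hyaluronan, had -0.87 ± 0.05.

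Gene lists were read against all 8596 genes compared, of which 37.9% were higher and 19.6% lower in members in all 4 libraries (median log2 ratio 0.08). In the interferon response list 0 of 25 genes were higher and 23 lower in all 4 libraries, with a median of -0.98. For NF-kB and inflammasome genes these numbers were 0 and 15 of 15, with a median of -0.77. For cytokines and chemokines they were 1 and 10 of 14, with a median of -1.09, and the exception was Il34, a growth factor for macrophages, at 0.34 ± 0.07. Immediate early and dissociation response genes were 1 higher and 24 lower of 28, with a median of -0.61. These included the transcription factors Fosb (-0.67 ± 0.07), Jund (-0.69 ± 0.10) and Klf6 (-0.63 ± 0.06). Egr1, the other of the 4 most abundant, had a weaker ratio of -0.20 ± 0.15, and of -0.03 in Sham 2. Members were not uniformly low in it. In their largest sub-cluster, described below, Egr1 stood at 2744 CPM, beside a mean of 1770 CPM over all satellite glia. Reactive glia genes were 2 higher and 10 lower of 17, with a median of -0.47, and MHC class I genes 2 higher and 10 lower of 13, with a median of -0.21. These counts follow the choice of members and are descriptions. Among cells with at most 10% mitochondrial UMIs, 1267 of 8992 genes were higher in members in all 4 libraries.

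Against satellite glia with a high Schwann-like score only, whose inflammatory score was also low, most of these medians were closer to 0. The interferon median was -0.17 there, that of NF-kB -0.27 and that of cytokines 0.13, beside a median of -0.02 over all genes. Immediate early genes were still 0 higher and 23 lower of 28, with a median of -0.32. Of all genes, 18.4% were higher and 25.2% lower in all 4 libraries in that comparison. Reactive glia genes had a median of -0.58 there, with 13 of 17 lower. Vim, the intermediate filament vimentin, had a log2 ratio of -0.64 against these cells and of -0.11 against cells with a high inflammatory score only. Immediate early and reactive glia genes were thus lower in members also against cells with a low inflammatory score.

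**Figure D3:**
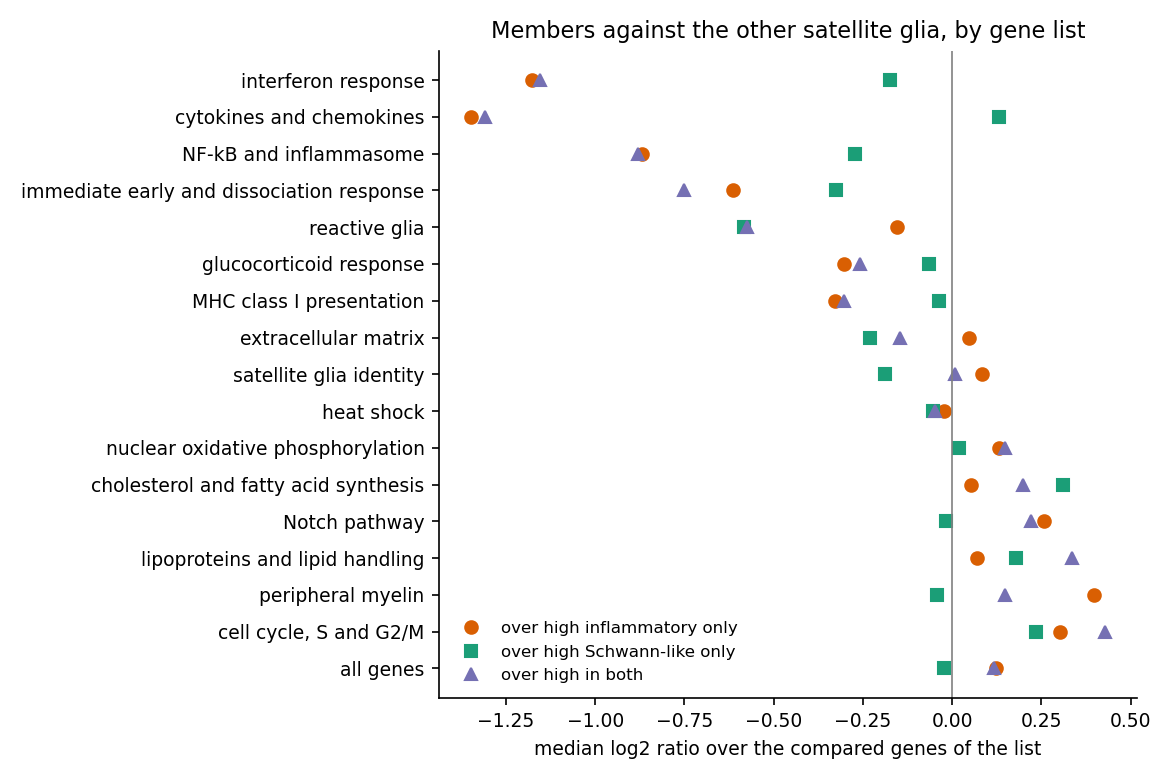
Median log2 ratio of members over each of the 3 other kinds of satellite glia (circles, squares and triangles) for 16 gene lists and for all genes compared. The interferon list sits at -1.18 against high inflammatory cells and -0.17 against high Schwann-like cells, and the cell cycle list at 0.30 and 0.23.

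Lists of glial support functions were mixed. Potassium, glutamate and coupling genes were 7 higher and 2 lower of 11 in all 4 libraries, with a median log2 ratio of 0.04, below that of all genes. Cholesterol and fatty acid synthesis genes were 18 higher and 5 lower of 29 in all 4 libraries, with a median log2 ratio of 0.15. Against cells with a high Schwann-like score only they were 20 higher and 0 lower of 29, with a median of 0.31, while against cells with a high inflammatory score only they were 13 higher and 10 lower (all genes, 43.5% and 15%). Cyp51, an enzyme of sterol synthesis, had log2 ratios of 0.58 and -0.05 in these comparisons, and Hmgcs1, which makes the precursor of mevalonate, had 0.48 and -0.02. Notch pathway genes were 9 higher and 4 lower of 17, with a median of 0.18, and Jag1, a Notch ligand, had 0.30 ± 0.13. Against cells with a high Schwann-like score only the Notch median was -0.02, like that of all genes. With cells thinned to 1000 UMIs it was 0.04, also like that of all genes. The list as a whole was thus not raised at equal depth, while Hey2 (0.74) and Nrarp (0.94) were still higher in members there. Nuclear oxidative phosphorylation genes were 34 higher and 1 lower of 46, with a median of 0.11, only slightly above the median of all genes. Lipoprotein and lipid handling genes were 7 higher and 3 lower of 15, with a median of 0.23. Sod3, an extracellular superoxide dismutase, had a ratio of 0.50 ± 0.07 and Fbln5, a matrix protein, 0.40 ± 0.05.

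Genes that define satellite glia in general did not follow one direction. Of 20 such genes compared, 8 were higher and 6 lower in all 4 libraries, with a median of -0.03. Glul, glutamine synthetase, had a log2 ratio of 0.17 ± 0.07 and Atp1b2, a subunit of the sodium pump, 0.23 ± 0.04. Cst3, cystatin C, had -0.11 ± 0.05. These ratios were small beside those of Hey2 and Nrarp.

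Clustering of members alone gave 7 sub-clusters, which are described by number and leading genes. Sub-cluster 1 held 1490 cells (39.5% of members) and was led by the interferon regulatory factor Irf1, the NF-kB inhibitor Tnfaip3, the immediate early genes Egr2 and Egr1, and Il6. Egr1 stood at 2744 CPM there, against 656 CPM in the other members, and Cxcl10 at 1512 CPM, against 456 CPM. Sub-cluster 2 held 1056 cells, in which Cxcl10 stood at 42.5 CPM, against 1178 CPM in the other members. It was led by Hbb, Hba-a1 and Id3, an inhibitor of differentiation factors, and Hey2 was also higher there, at 769 CPM against 466 CPM. An Hbb UMI was present in 1.52% of its cells, against 1.41% in sub-cluster 1 and 1.63% in sub-cluster 3, so a few barcodes carried Hbb, while Id3 was present in 61.2%. Its median mitochondrial share was 18.6%. Members thus held both cells rich and cells poor in immediate early and chemokine transcripts.

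Haemoglobin is made by red blood cells, and its transcripts followed single libraries. The 5 red blood cell genes summed to 124 and 339 CPM in members of CPIP 1 and CPIP 2, and to 759 and 0.334 CPM in members of Sham 1 and Sham 2. Their part in the leading genes of sub-cluster 2 was not tested. Sub-cluster 3 (553 cells) was led by Nuak1 and Tet2, a DNA demethylase, with a ratio to the other members of 0.78 for Nuak1 on the log2 scale, the smallest of all leading genes ranked first. Genes that led sub-cluster 4 (410 cells) included Emp1, Thbs1, thrombospondin-1, and Fosl1, a partner of Jun. Thbs1 stood at 98.8 CPM there, against 13.4 CPM in the other members. Gbp2, an inflammatory gene of the rule, also led it, at 343 CPM against 72.9 CPM. Nfkb1 did so too, at 419 CPM against 101 CPM. The median inflammatory score of sub-cluster 4, 31.5, was the highest of all sub-clusters, beside 30.0 in sub-cluster 1. Its median depth of 6955 UMIs was also the highest. Its median mitochondrial share was 12.4%, against 14.5%, 18.6% and 16.4% in sub-clusters 1, 2 and 3, and 8.99% in sub-cluster 5.

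The other 3 sub-clusters were small. Sub-cluster 5 (125 cells, median 1108 UMIs) was led by Apod, the proteoglycan Dcn, Myoc, the collagen gene Col3a1 and the MHC class II genes RT1-Da and Cd74. Dcn stood at 1472 CPM there, against 1.49 CPM in the other members. A minority of its cells carried these genes, with a UMI of Dcn in 10.4%, of Apod in 12.8%, of Cd74 in 6.4% and of Col3a1 in 21.6%, while Fabp7 was present in 76.8%. Sub-cluster 6 (92 cells, median 1703.5 UMIs) was led by the myelin and node genes Gldn, Bcas1 and Prx, and Gldn stood at 1179 CPM, against 1.33 CPM in the other members. Fabp7 (101 CPM against 2289 CPM) and Hey2 (35.3 CPM against 535 CPM) were low in it, while Sfrp5 (3080 CPM against 3128 CPM) was near the level of the other members. The rule thus admitted 92 barcodes led by these genes, with a median satellite glia score of 29.8 per 10000 UMIs. Sub-cluster 7 (43 cells) was led by Top2a, Prc1, Cenpf and Cdk1, and Mki67 had a UMI in 86.0% of its cells.

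Sub-cluster 4 was a larger fraction of members in both CPIP libraries, with 13.0% and 13.4% in CPIP 1 and CPIP 2, against 8.78% and 8.09% in Sham 1 and Sham 2. The means were 13.2% ± 0.283 in CPIP and 8.44% ± 0.482 in Sham (SD, n = 2 each), the groups did not overlap, and the exact permutation p was 0.33, the smallest possible (0.933 after adjustment over 7 sub-clusters). The part of the depth and inflammatory score of sub-cluster 4 in this difference was not tested. Sub-cluster 3 was a smaller fraction in CPIP, with 14.4% and 12.9% in CPIP and 17.1% and 14.8% in Sham (exact permutation p = 0.33). The groups overlapped in the other 5 sub-clusters. Sub-cluster 6 was highest in CPIP 1, with 4.53% there and 2.02% in CPIP 2, against 2.42% and 1.13% in Sham 1 and Sham 2.

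**Figure D4:**
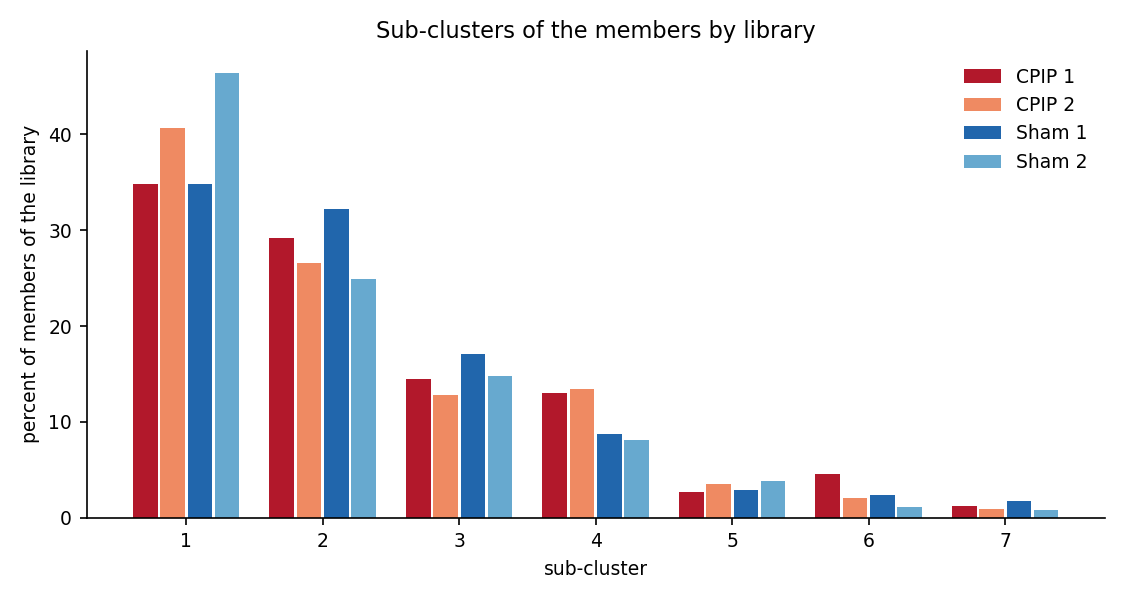
Percent of the members of each library (bars, CPIP 1, CPIP 2, Sham 1, Sham 2) in each of 7 sub-clusters, named by number. Sub-cluster 4 held 13.0% and 13.4% in the CPIP libraries and 8.78% and 8.09% in the Sham libraries, and sub-cluster 1, the largest, overlapped between the groups.

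The question set by the series is how ganglion cells differ between CPIP and Sham. In members summed per library, edgeR's quasi-likelihood test called 2 of 10790 genes (0.0185%) at an adjusted p under 0.05, S100a9 and S100a8, both higher in CPIP. They encode the calprotectin subunits, abundant in neutrophils. S100a9 had 297 and 305 UMIs in members of CPIP 1 and CPIP 2, and 1 and 1 UMIs in members of Sham 1 and Sham 2. Its log2 fold change was 8.07 (SE 0.33, adjusted p = 0.001493). S100a8 had 124 and 139 UMIs in CPIP, and 4 and 1 in Sham, with a log2 fold change of 5.63 (SE 0.44, adjusted p = 0.04632). The groups did not overlap for either gene. The count of called genes rested on single libraries, with 396 calls without CPIP 1, 20 without CPIP 2 and 1 without Sham 2. Nothing in the labels ties the libraries to more than their pools, so p-values measure only the spread between these libraries.

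Nearly all of these UMIs sat in 1 barcode per CPIP library. A single barcode held 294 of the 297 S100a9 UMIs in CPIP 1, and another held 277 of the 305 in CPIP 2. The same barcodes held 120 of 124 and 133 of 139 S100a8 UMIs, and also held Camp, Retnlg and Ngp, genes of neutrophil granules that had 0 UMIs in members of both Sham libraries. Without these 2 barcodes, edgeR's quasi-likelihood test called 0 of 10780 genes. The barcode of CPIP 1 held 9587 UMIs and was removed as a doublet in an alternative, in which edgeR called no gene, and that of CPIP 2 held 1590 UMIs. The 2 calls thus rested on 2 barcodes.

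**Figure D5:**
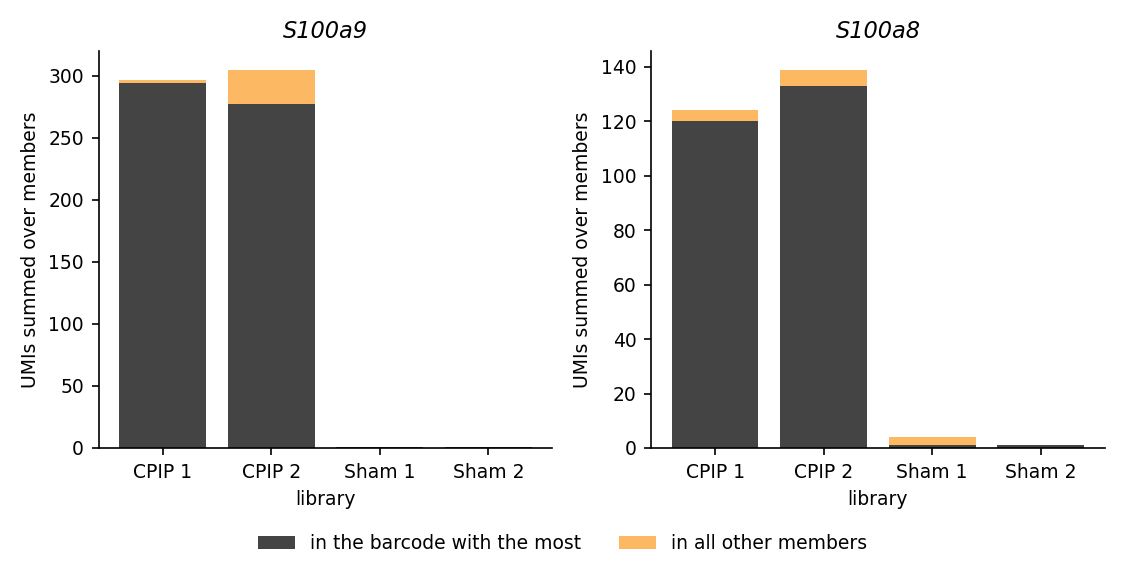
UMIs of S100a9 and S100a8 summed over the members of each library, split into the barcode with the most UMIs (dark) and all other members (light). In CPIP 1 and CPIP 2 a single barcode held 294 of 297 and 277 of 305 S100a9 UMIs, while the Sham libraries held 1 and 1.

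The next smallest p belonged to Rpl10a-ps9, listed as a copy of the ribosomal protein gene Rpl10a. It had 76 and 185 UMIs in members of CPIP 1 and CPIP 2, and 2 and 3 UMIs in Sham 1 and Sham 2. These UMIs were spread over 69 and 163 members in CPIP, with at most 3 in a cell. The log2 fold change was 5.58 (SE 0.51), and the adjusted p of 0.08094 missed the threshold. It was called without the low-count filter, without either CPIP library and by DESeq2. The other satellite glia had 280 and 479 UMIs in CPIP, and 10 and 13 in Sham, a log2 fold change of 5.04 (SE 0.35, adjusted p = 0.1337 by edgeR's quasi-likelihood test). Whether the counting split UMIs between near-identical ribosomal copies was not tested.

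No other gene passed the test in members, while 457 genes had an unadjusted p under 0.05. The genes below with both CPIP libraries on 1 side of both Sham libraries and the smallest p all had an adjusted p of 0.932. Among those higher in CPIP, Ifngr2, a chain of the interferon gamma receptor, stood at 81.9 and 87.7 CPM in CPIP 1 and CPIP 2, and at 54.5 and 59.2 CPM in Sham 1 and Sham 2, a log2 fold change of 0.58 (SE 0.11). Srf, serum response factor, stood at 177 and 173 CPM in CPIP and at 130 and 127 CPM in Sham, a log2 fold change of 0.45 (SE 0.09). These genes did not overlap between the groups, as their choice required.

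Other higher genes were Rpl17 (0.84 on the log2 scale), Spidr (0.74), Mical2 (0.73), an actin-oxidising enzyme known to promote Srf activity, Rnf125 (0.63), Cd44 (0.53), the hyaluronan receptor, Arid5b (0.51) and Runx1 (0.45), a transcription factor. The values of Mical2 are those of the feature ENSRNOG00000016244, since several features share the symbol. The direction of Cd44 and Runx1 turned round in cells with at most 10% mitochondrial UMIs (log2 -0.27 and -0.06). The lowest value among the 10 lower genes was that of Rfxank, a factor of MHC class II promoters, at 70.7 and 59.6 CPM in CPIP and at 103 and 109 CPM in Sham, a log2 fold change of -0.70 (SE 0.12). Cxcr4, the receptor of the chemokine Cxcl12, stood at 153 and 140 CPM in CPIP and at 201 and 189 CPM in Sham, a log2 fold change of -0.40 (SE 0.09). Mkrn2 (-0.56), Rlbp1 (-0.49), LOC100360791 (-0.49), Aldh9a1 (-0.45), Samd9l (-0.44), an interferon-induced gene, Klhl23 (-0.43), Pmp2 (-0.41), a lipid-binding protein of myelin, and Decr1 (-0.39), an enzyme of fatty acid oxidation, were the other values below 0.

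Of the markers, Hey2 averaged 524 ± 30.2 CPM in CPIP members and 542 ± 17.6 CPM in Sham members (SD, n = 2 each), a log2 fold change of -0.04 (SE 0.08, adjusted p = 0.984). It was -0.44 among cells with at most 10% mitochondrial UMIs. Apoe averaged 2196 ± 901 CPM in CPIP members and 1894 ± 64.3 CPM in Sham members, a log2 fold change of 0.22 (SE 0.25, adjusted p = 0.972). The direction of Apoe rested on CPIP 2 and was -0.27 on the log2 scale without it. Without CPIP 1 it was 0.59, which edgeR's quasi-likelihood test called (adjusted p = 0.0006758). Fabp7 stood at 1891 and 1771 CPM in CPIP members, and at 2063 and 3176 CPM in Sham members, of which Sham 2 was the high library. Sfrp5 averaged 3121 ± 521 CPM in CPIP members and 3142 ± 336 CPM in Sham members. The fold changes of Fabp7 and Sfrp5 are not tested, since both helped to choose the cells.

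Gene lists were compared between the groups by the sign of the fold change, beside all 10774 genes outside the rule. Of all these genes 5519 were positive, and their median was 0.01. Both CPIP libraries lay above both Sham libraries in 15.6% of them and below in 17.9%. No member of any list was called apart from S100a8 and S100a9. Cytokine and chemokine genes were positive in 15 of 19, with a median log2 fold change of 0.33. Of these 19, 7 had both CPIP libraries above both Sham libraries and 2 had both below. NF-kB and inflammasome genes were positive in 13 of 17 (median 0.23, 9 above, 3 below). Glucocorticoid response genes were positive in 12 of 15 (median 0.30, 7 above, 1 below). For reactive glia genes this was 14 of 18 (median 0.21, 6 above, 1 below). The most abundant members of these lists moved little. Nfkbia, the inhibitor of NF-kB that NF-kB itself induces, stood at 438 and 510 CPM in CPIP members and at 399 and 437 CPM in Sham members, a log2 fold change of 0.19. S100a10, a partner of annexin A2, stood at 821 and 833 CPM in CPIP members and at 738 and 685 CPM in Sham members, a log2 fold change of 0.23. The chemokine Ccl7 had a log2 fold change of 0.17 and Tnfaip3 one of -0.14, and none of the 4 passed the test. Interferon genes outside the rule had 14 of 30 positive (median -0.03, 3 above, 4 below). The cap that the rule puts on Cxcl10, Gbp2, Gbp5 and Ccl2 bounds what such lists can show in members of either group.

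Lists of maintenance functions gave small medians. Cholesterol and fatty acid synthesis genes were positive in 23 of 31 (median 0.11, 7 above, 4 below). Notch pathway genes were positive in 5 of 18 (median -0.06, 3 above, 5 below). Satellite glia identity genes were positive in 8 of 23 (median -0.04, 1 above, 7 below). Nuclear oxidative phosphorylation genes were positive in 23 of 49 (median -0.01, 2 above, 11 below). Cell cycle genes were positive in 6 of 29, with a median of -0.16, and 1 had both CPIP libraries above and 2 both below. Among the most abundant, Ccnd1 had a log2 fold change of -0.14 and Pcna one of -0.04, and neither passed the test. The cell cycle median changed sign in 2 of 15 alternatives, and those of the Notch, identity, cytokine, NF-kB, glucocorticoid and reactive glia lists in 0 of 15. That of cholesterol and fatty acid synthesis changed sign in 1, that of nuclear oxidative phosphorylation in 2 and that of the interferon response in 3.

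Markers of other cell types were read beside these lists. Of 8 myelinating Schwann cell markers 8 were positive, with a median log2 fold change of 0.50, and 10 such markers summed to 6995 and 5480 CPM in CPIP members, and to 5755 and 4601 CPM in Sham members, which overlap. The 10 fibroblast markers summed to 1143 and 2022 CPM in CPIP and to 1538 and 985 CPM in Sham, also overlapping. The 15 macrophage markers summed to 71.2 and 114 CPM in CPIP members, against 55.0 and 27.7 CPM in Sham members, and none was at 0. Of 11 lymphocyte and neutrophil markers, 6 were at 0 in members, among them Cd3e, Cd3d, Cd2, Nkg7 and Ms4a1. The 11 summed to 94.9 and 76.3 CPM in CPIP members, against 1.68 and 1.67 CPM in Sham members. They include S100a9 and S100a8, most of whose UMIs sat in 1 barcode per CPIP library. That barcode held 294 of 297 S100a9 UMIs in CPIP 1 and 277 of 305 in CPIP 2. The median log2 fold change of the myelinating markers was -0.13 with cells scored at 1000 UMIs, that of the macrophage markers -0.38 (1.08 in all members) with at most 10% mitochondrial UMIs, and that of the fibroblast markers -0.14 without CPIP 2 and -0.08 without Sham 2 (0.65 in all members). Their part in the values of the lists was not tested, and without the sub-clusters under 200 cells edgeR's quasi-likelihood test called no gene.

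The group effect in members was then compared with that in the other satellite glia by an interaction term in one edgeR model. It called 0 of 12445 genes (550 at an unadjusted p under 0.05), and in the other satellite glia alone CPIP against Sham called 0 of 12619 (398 at an unadjusted p under 0.05, and 9 by DESeq2). Leaving out 1 library gave 3 to 11 calls for the difference of effects, and in the other satellite glia 478 calls without CPIP 1, 29 without CPIP 2 and 0 without either Sham library.

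Differences of effect with small p, all with an adjusted p of 1 in edgeR's quasi-likelihood test, were positive for Arid5b (0.47), Spidr (0.44), Smurf1 (0.34), a ubiquitin ligase of BMP signalling, and RT1-S3 (0.28), an MHC class I gene. They were negative for Itpripl1 (-0.49), Klhl23 (-0.39), Ppa2 (-0.38), a mitochondrial pyrophosphatase, LOC102549144 (-0.36) and Id3 (-0.31). Id3 stood at 164 and 169 CPM in members of CPIP 1 and CPIP 2, and at 174 and 143 CPM in members of Sham 1 and Sham 2, which overlap. In the other satellite glia it stood at 106 and 120 CPM in CPIP and at 94.96 and 80.1 CPM in Sham. That of Spidr was -0.02 where cells were scored at 1000 UMIs.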

How the data were processed

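Single cells of rat dorsal root ganglia were measured on the BD Rhapsody system in 4 libraries, 2 per group, each of 3 pooled rats. The deposited files hold raw UMI counts per feature and barcode for 25629 features, per the file headers, of which 3852 have no symbol and 211 symbols are shared by several features. For the aligner, genome build, annotation and cell calling, the names were not given in the sources used here. Every deposited barcode had at least 500 UMIs.

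Barcodes with at least 200 genes and at most 25% mitochondrial UMIs were retained and scored per 10000 UMIs. Doublets were kept. Scrublet marked 2, 255, 206 and 171 barcodes in CPIP 1, CPIP 2, Sham 1 and Sham 2, so it did not work in CPIP 1, and in the alternative without doublets the 609 highest scores were removed there. Counts were summed per library and tested with edgeR 4.0.16 (quasi-likelihood, TMM, filterByExpr, Benjamini-Hochberg over all genes, threshold 0.05), after a test of the script on simulated data. The test had CPIP against Sham as its only term. The difference of effects was an interaction term in 1 fit over both sets of cells. Ratios of members to other satellite glia used CPM with a pseudocount of 0.5 in each library and have no test. Members were clustered with scanpy 1.11.5 (2000 variable genes, 20 principal components, 15 neighbours, Leiden resolution 0.5). DESeq2 1.42.0, other filters, cuts of the scores and leaving out each library were alternatives.

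Genes named were the 15 highest and 15 lowest ratios with at least 32 CPM and 1 sign in all 4 libraries, the 10 higher and 10 lower genes in CPIP with the smallest p among those with at least 32 CPM and groups that did not overlap, the 5 smallest p in each direction for the difference of effects, called genes, and the 4 most abundant genes of each list. List genes needed 5 CPM over satellite glia for ratios. Top2a, Mki67, Rpl10a-ps9, the neutrophil genes and the leading genes of sub-clusters were chosen after their values were seen. Members, scores and the 41 gene lists (717 of 747 symbols in the files) were chosen with earlier results of these data known. Promoters are from RefSeq (GRCr8), matched by symbol. Intervals were not needed, and counts cover counting error only. Some genes that the rule names are not reported here.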

Additional observations from a re-analysis of the deposited data

How the results depend on the processing

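In members the count of genes called between CPIP and Sham was 261 (217 higher, 44 lower) without the low-count filter, 5 by DESeq2, 4 with at most 10% mitochondrial UMIs and 1 to 396 with 1 library left out. It was 0 with doublets removed, with a satellite glia score of at least 40, with cells scored at 1000 UMIs and, in alternatives chosen after seeing the data, without the S100a9-rich barcodes or the sub-clusters under 200 cells. In the other satellite glia it was 1 without the filter, 1 with cells scored at 1000 UMIs, 9 by DESeq2 and 0 to 478 with 1 library left out. The difference of effects called 29 genes without the filter, 7 with at most 10% mitochondrial UMIs, 1 at a score of at least 40 and 3 to 11 with 1 library left out. The cause of these changes was not tested. Where 1 library is left out, the lone library of its group is assumed to vary like the others.

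The difference in the share of members was -0.116 points with cells scored at 1000 UMIs and -1.43 to 3.05 points with 1 library left out, and that of satellite glia -3.56 to -0.464 points. Scoring at 1000 UMIs gave medians of 60 (inflammatory) and 10 (Schwann-like). Members were then 11.3%, 14.5%, 12.1% and 13.9% of satellite glia in CPIP 1, CPIP 2, Sham 1 and Sham 2. Values of that setting thus describe a smaller set of cells. Genes higher in members in all 4 libraries numbered 1267 with at most 10% mitochondrial UMIs, against 3262 in the main analysis. That limit kept only 81, 99, 83 and 64 members in CPIP 1, CPIP 2, Sham 1 and Sham 2. The number of cells and their mitochondrial share thus changed together, and their parts were not tested. Of 170 ratios of members to other satellite glia over 5 alternatives, 57 moved by more than the SD over libraries and 1 changed sign, under that limit, a score of at least 40 or scoring at 1000 UMIs. With at most 10% mitochondrial UMIs Runx1 (-0.0633), Cd44 (-0.27), the ratio of Nrip2 (-0.38) and the difference of effects of Klhl23 (0.79) changed sign. The fold change of Hey2 was -0.4411 with that limit. With 1 library left out, Hey2 ranged from -0.1023 to 0.017 and Apoe from -0.2734 to 0.5867, both changing sign without CPIP 2. With cells scored at 1000 UMIs the difference of effects of Spidr (-0.023) changed sign. S100a9 lost its call without the sub-clusters under 200 cells (adjusted p = 0.9407) and S100a8 without Sham 2 (adjusted p = 0.108), both by edgeR's quasi-likelihood test. Of 394 fold changes of named genes in members over the alternatives, 349 kept direction and side of the threshold.

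The replicate numbers are not said to pair libraries, and deviations of same-numbered libraries correlated at -0.06 in members and -0.12 in the other satellite glia. With the replicate block 3 genes were called in members and 0 in the other satellite glia, where a crossed block, added after seeing the data, also gave 0.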
